A study of Homo sapiens with 29 samples.

Results

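HMGA2, HMGA1, IGF2BP1, IGF2BP2, IGF2BP3 and LIN28B were followed through RNA-seq and lysine-crotonylation ChIP-seq of HCT116, a human colon carcinoma cell line. The 6 genes were taken by symbol from a gene table of 38148 entries, and the chromatin regions by the same symbol in a table of 49916 regions, which gave 27 regions. The genes were chosen by their RNA values, in particular a higher HMGA2 level with DAXX siRNA in these same libraries, so their differences between siRNAs are given as description with no test. The symbols are those of the table, and the identifiers are the Ensembl gene IDs paired with them.

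Control cells received a non-targeting siRNA at 25 nM. The other cells received siRNA against DAXX at 35 nM, and both were kept without or with 10 mM crotonic acid (crotonate). The siRNA dose differed along with its target, so dose and target cannot be told apart. The sample protocol gives 48 h of crotonate and the series text gives 18 h. RNA was read in 4 libraries per group and 16 in all. The chromatin libraries, made with a pan-crotonyl-lysine (Kcr) antibody, numbered 4 for each siRNA without crotonate and 2 for each siRNA with crotonate, beside 1 input library from cells given DAXX siRNA. No source states separate cultures, so p-values measure the spread between these samples, which may be technical.

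HMGA1 and HMGA2 are AT-hook proteins that bend AT-rich DNA in the minor groove and change how other factors assemble on it. IGF2BP1, IGF2BP2 and IGF2BP3 bind mRNAs, IGF2 and H19 among them, and affect their stability, location and translation. LIN28B binds the precursors of let-7 microRNAs and blocks their maturation, and the mRNAs of HMGA2, of LIN28B itself and of the IGF2BP family carry let-7 sites in their 3′ ends. Most of these genes are active in embryonic and fetal tissue, are low in most adult tissue and are made again in many carcinomas, whereas IGF2BP2 stays present in many adult tissues. DAXX is a chaperone of histone H3.3 and a repressor partner at chromatin. Crotonylation is an acyl mark on lysines, histone lysines included, whose supply rises when cells take up crotonate.

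The let-7 family is shown because it is the regulator these genes share in the literature, not because it was measured here. The capitals mark the seed, bases 2 to 8 of the mature RNA, and all 9 mature 5p sequences of the family in RefSeq carry the same seed.
let-7a-5p: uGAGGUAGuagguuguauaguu
let-7b-5p: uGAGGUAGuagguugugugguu
let-7i-5p: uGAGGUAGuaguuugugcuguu
The 3 sequences differ only outside the seed.

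The bases before the starts of HMGA1, IGF2BP2 and IGF2BP3 are shown because a Kcr region lay over each of these starts. RefSeq promoter sequences (GRCh38.p14) matched 4 of the 6 genes: HMGA1, IGF2BP2, IGF2BP3 and LIN28B. For HMGA1, IGF2BP2 and IGF2BP3 the entry nearest the gene start is shown. Its first 250 bases, those before the RefSeq start, are printed 5′ to 3′ on the gene's strand. Capitals mark GGGCGG or its reverse complement CCGCCC, the GC box bound by SP factors, and CACGTG, an E-box that reads the same on both strands.
HMGA1, plus strand, chr6:34236623-34236872: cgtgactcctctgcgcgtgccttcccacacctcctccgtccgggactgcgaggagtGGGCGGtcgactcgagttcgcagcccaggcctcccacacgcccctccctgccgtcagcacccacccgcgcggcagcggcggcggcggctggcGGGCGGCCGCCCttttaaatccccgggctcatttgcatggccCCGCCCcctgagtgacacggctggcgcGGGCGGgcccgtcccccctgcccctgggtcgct
IGF2BP2, minus strand, chr3:185825043-185825292: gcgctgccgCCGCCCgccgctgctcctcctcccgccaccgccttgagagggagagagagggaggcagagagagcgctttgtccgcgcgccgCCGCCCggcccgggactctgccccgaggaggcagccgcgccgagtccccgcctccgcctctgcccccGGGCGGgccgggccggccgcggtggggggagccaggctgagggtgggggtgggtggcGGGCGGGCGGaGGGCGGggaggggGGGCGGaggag
IGF2BP3, minus strand, chr7:23470492-23470741: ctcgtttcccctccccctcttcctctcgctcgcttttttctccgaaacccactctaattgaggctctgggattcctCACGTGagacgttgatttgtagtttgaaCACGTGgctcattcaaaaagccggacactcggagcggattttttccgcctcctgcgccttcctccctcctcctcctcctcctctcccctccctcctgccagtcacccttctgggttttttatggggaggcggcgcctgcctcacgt
The stretch before HMGA1 held 5 GC boxes and that before IGF2BP2 held 7, counting overlapping matches, and neither held the E-box. Another RefSeq entry of each of these genes, not printed here, held no GC box or E-box, with 51.2% and 32.8% G and C. The stretch before IGF2BP3 held no GC box and 2 E-boxes. Of 35116 RefSeq promoter stretches of the same length, 42.6% held a GC box and 6.3% an E-box. Base composition split the same way: G and C made up 74.8% before HMGA1, 81.6% before IGF2BP2 and 56.8% before IGF2BP3, against a median of 58.0%. The counts of the dinucleotide CG were 30, 32 and 15, against a median of 11. These matches describe letters and were not tied to binding. The IGF2BP2 stretch overlaps the start of the gene as the table has it by 14 bases.

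RNA libraries held 35.0 M to 55.1 M reads in genes, and values are RPM (reads of the gene scaled to the reads of the library), which are not divided by transcript length, so levels are not compared between genes. DAXX itself lay between 95.2 and 105 RPM in the 8 libraries with non-targeting siRNA and between 13.1 and 27.4 RPM in the 8 with DAXX siRNA. Under DAXX siRNA it went from 24.6 ± 2.06 to 19.3 ± 4.67 RPM with crotonate (SD, n = 4). That log2 difference of -0.38 was called (limma adjusted p = 0.0452), although the groups overlapped. Under non-targeting siRNA it was -0.04 (limma adjusted p = 0.884), and the 2 crotonate effects differed by -0.34 (limma adjusted p = 0.995). The part of DAXX level in the other differences was not tested. All 7 epithelial markers were present, with a summed level of 3850 to 5010 RPM. The 4 leukocyte markers summed to at most 0.412 RPM, and the 3 endothelial markers to between 0.279 and 1.57 RPM. The 4 fibroblast markers summed to between 11.2 and 26.9 RPM, nearly all from COL1A1, while DCN had no read in any library. Leukocyte markers reached at most 0.0901 RPM without crotonate and lay between 0.112 and 0.412 RPM with it. Endothelial markers went from 0.481 to 0.817 RPM to 0.832 to 1.57 RPM with crotonate under non-targeting siRNA, and from 0.279 to 0.625 RPM to 0.733 to 1.42 RPM under DAXX siRNA. Fibroblast markers lay between 11.2 and 21.1 RPM without crotonate and between 17.4 and 26.9 RPM with it. Epithelial markers lay between 4070 and 4780 RPM with non-targeting siRNA and between 3850 and 4080 RPM with crotonate added. Under DAXX siRNA they lay between 4570 and 5000 RPM, and between 4190 and 5010 RPM with crotonate added. Limma called PECAM1 higher with crotonate under non-targeting siRNA (adjusted p = 0.0464), a call lost in 11 of 15 other settings. Without crotonate PECAM1 reached at most 0.180 RPM in any library. PECAM1 thus passed the entry filter, given below, only through its crotonate libraries. That filter favours a rise, so the PECAM1 call is given as description. With crotonate under DAXX siRNA, COL1A1 was called higher (limma adjusted p = 0.0120) and EPCAM lower (0.0191). CDH1, also an epithelial marker, was called higher with crotonate under both siRNAs (limma adjusted p = 0.00866 and 0.0174). The part of these markers in the crotonate results was not tested. A gene entered the tests with at least 0.25 RPM in at least 4 libraries, which 17973 genes passed. Of the 6 genes, 5 passed and LIN28B did not.

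HMGA2 (ENSG00000149948; GRCh38 chromosome 12, 65824131 to 65966295, plus strand) was the gene with the widest difference between siRNAs among the 5 tested. With non-targeting siRNA alone its 4 libraries read 175, 132, 178 and 197 RPM, and with crotonate added 173, 158, 179 and 182 RPM. With DAXX siRNA alone they read 311, 276, 314 and 290 RPM, and with crotonate added 361, 290, 341 and 282 RPM. Every library with DAXX siRNA was above every library with non-targeting siRNA, and the 2 crotonate conditions overlapped their own controls. Each library held between 5869 and 16299 HMGA2 reads, so counting error is small beside the spread between libraries.

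The group means of HMGA2 were 171 ± 27.5 RPM for non-targeting siRNA, 173 ± 10.6 with crotonate, 298 ± 17.8 for DAXX siRNA and 319 ± 38.5 with crotonate (SD, n = 4 each). The difference between siRNAs in mean log2 RPM was 0.82 (SE 0.105) without crotonate and 0.88 (SE 0.105) with it, or 1.75 and 1.85 times by mean RPM. Over the whole table limma called 73 genes between siRNAs without crotonate at an adjusted p under 0.05, which is 0.406% of the genes tested (0.1% higher and 0.306% lower), and 190 with crotonate, which is 1.06% (0.389% higher and 0.668% lower). Because the genes were chosen on these differences, no call is given for the members in these 2 comparisons.

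Crotonate left HMGA2 within the spread of its libraries. The log2 difference was 0.03 with non-targeting siRNA (95% interval -0.187 to 0.25; limma adjusted p = 0.886) and 0.09 with DAXX siRNA (-0.126 to 0.311; limma adjusted p = 0.625). The interaction, that is the difference between the crotonate effects under the 2 siRNAs, was 0.06 (-0.248 to 0.370; limma adjusted p = 0.995). The sign with crotonate turned negative when each library was centred on its median gene, -0.10 and -0.02.

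Reads of overlapping genes cannot be split where strand was not used in counting, which the sources used here do not state. HMGA2-AS1, on the opposite strand inside HMGA2, averaged 2.03 ± 0.317 RPM with non-targeting siRNA and ranged from 1.103 to 2.67 RPM over all 16 libraries. AC107308.1 and AC090673.1, the other 2 genes inside it, stayed under 0.5 RPM in every library. AC090673.1 was called higher with crotonate under DAXX siRNA (limma adjusted p = 0.0274), from 4 libraries with 0 to 9 reads. The chromatin region over the HMGA2 start carries the symbol RPSAP52, a ribosomal protein pseudogene on the opposite strand that overlaps HMGA2. No RNA level is given for RPSAP52, because the genes counted for RNA held no overlapping entry of that symbol.

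HMGA1 (ENSG00000137309; chromosome 6, 34236873 to 34246231, plus strand), the second AT-hook gene, rose with crotonate under DAXX siRNA. Its libraries read 1464, 1464, 1299 and 1161 RPM with non-targeting siRNA and 1463, 1613, 1518 and 1565 RPM with crotonate added. They read 1479, 1636, 1449 and 1782 RPM with DAXX siRNA and 1991, 1880, 1715 and 2271 RPM with crotonate added. The 4 groups were ordered as listed, and each overlapped the next in at least 1 library.

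The crotonate difference of HMGA1 was 0.31 under DAXX siRNA (SE 0.0933; 95% interval 0.111 to 0.501; limma adjusted p = 0.0305), although the 2 groups overlapped. That call was lost in 7 of 16 other settings, where adjusted p ranged from 0.00685 to 0.171. It was lost without library 1 or 3 of DAXX siRNA and without library 1 or 4 of DAXX siRNA with crotonate. Under non-targeting siRNA the difference was 0.20 (0.004 to 0.394; limma adjusted p = 0.170); it was 0.271 and called with quantile scaling (adjusted p = 0.0425) and 0.07 when centred on the median gene (0.654). The interaction was 0.11 (-0.169 to 0.383; limma adjusted p = 0.995). Between siRNAs the means differed by 0.24 without crotonate, where groups overlapped, and by 0.34 with it, where all 4 libraries with DAXX siRNA were higher. HMGA1 has near-identical processed pseudogenes in the genome, and how reads that match several copies were counted is not given in the sources used here.

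**Figure D1:**
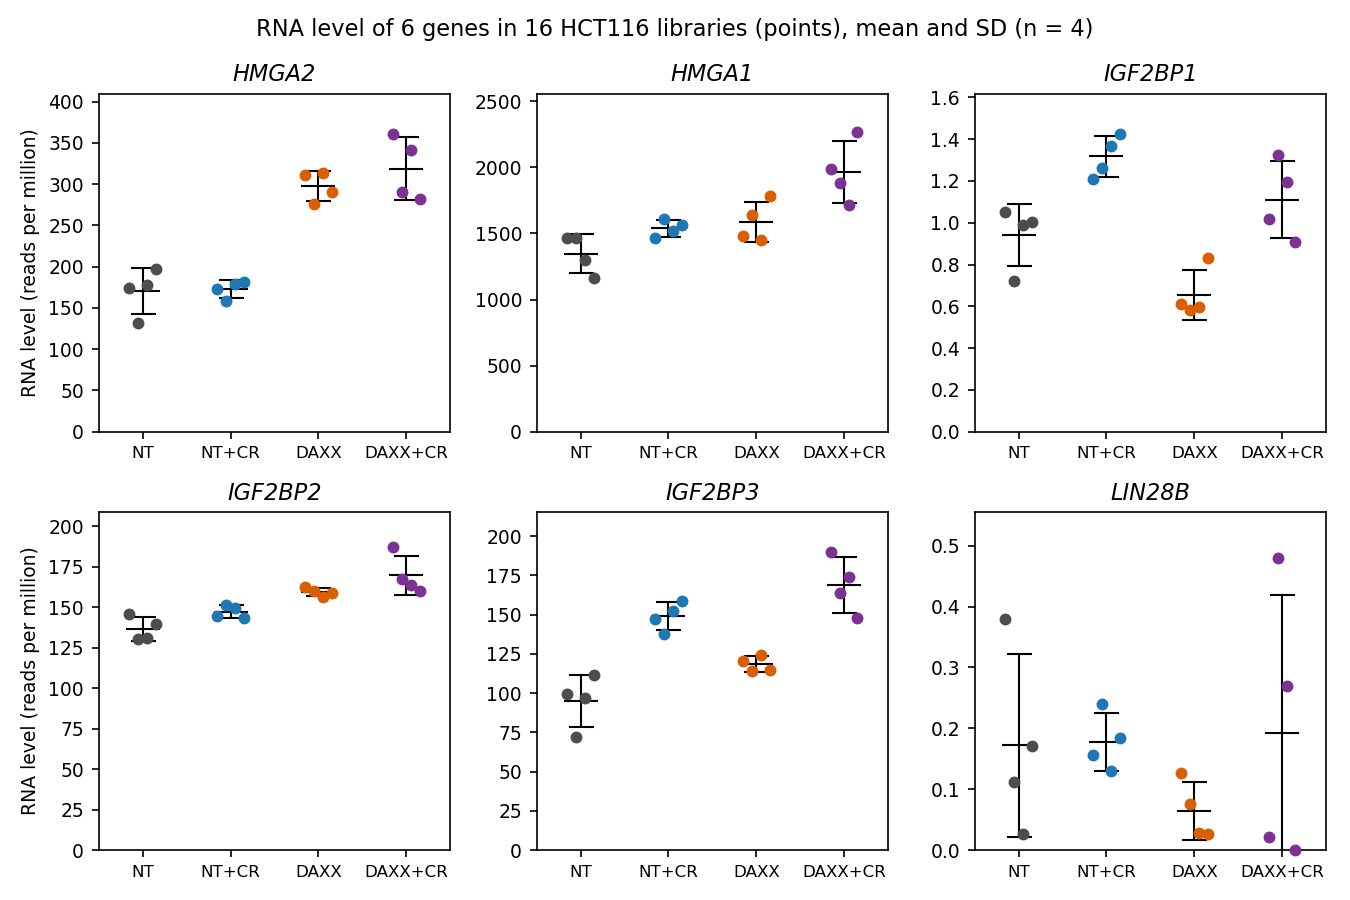
RNA level in RPM (vertical axes, each from 0) of the 6 genes in 4 libraries of each group; NT is non-targeting siRNA, DAXX is DAXX siRNA and +CR marks 10 mM crotonate. Points are libraries and bars the mean with SD (n = 4); HMGA2 separates by siRNA, IGF2BP3 by crotonate, and LIN28B stays under 0.5 RPM.

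The IGF2BP family split by gene. IGF2BP3 (ENSG00000136231; chromosome 7, 23310209 to 23470491, minus strand) rose with crotonate under both siRNAs. Its libraries read 99.2, 71.8, 96.7 and 111 RPM with non-targeting siRNA and 148, 138, 152 and 159 RPM with crotonate added. With DAXX siRNA they read 121, 114, 124 and 115 RPM, and with crotonate added 189.9, 164, 174 and 148 RPM. All crotonate libraries were above all libraries without crotonate.

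The crotonate difference of IGF2BP3 was 0.67 under non-targeting siRNA (SE 0.105; 95% interval 0.449 to 0.889; limma adjusted p = 0.000169), from 94.8 ± 16.6 to 149 ± 8.86 RPM (SD, n = 4). Under DAXX siRNA it was 0.51 (0.287 to 0.726; limma adjusted p = 0.00221), from 118 ± 4.99 to 169 ± 17.7 RPM. Both calls held in all 16 other settings, with adjusted p of 6.79e-05 to 0.00191 and of 0.000971 to 0.0167. The interaction of -0.16 (-0.473 to 0.149; limma adjusted p = 0.995) was within its error. Ordered by level, the groups ran from non-targeting siRNA to DAXX siRNA, non-targeting siRNA with crotonate and DAXX siRNA with crotonate. Only the last 2 overlapped. Between siRNAs the difference was 0.34 without crotonate, with no overlap, and 0.18 with it, where the groups overlapped. Without library 2 of non-targeting siRNA the first was 0.212.

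Of the genes tested, 13.1% were called higher and 2.34% lower with crotonate under non-targeting siRNA (15.4% in all), and 13% higher and 2.41% lower under DAXX siRNA (15.4% in all). The direction of these calls depended on scaling: 2352 genes were higher and 420 lower under non-targeting siRNA, against 1458 and 1701 when libraries were centred on the median gene and 1424 and 1010 with quantile scaling. Under DAXX siRNA 2338 higher and 433 lower became 1515 and 1488, and 1448 and 852. Among the 5 genes tested here, 1 was called under non-targeting siRNA, IGF2BP3, and 3 under DAXX siRNA, IGF2BP3, IGF2BP1 and HMGA1. MALSU1, a mitochondrial ribosome assembly factor, overlaps the 3′ end of IGF2BP3 on the opposite strand (chromosome 7, 23298739 to 23311729). It differed by 0.37 with crotonate under non-targeting siRNA (limma adjusted p = 0.00636; 0.0760 when libraries were centred on the median gene) and by 0.23 under DAXX siRNA (limma adjusted p = 0.0952). Its means ran from 77.6 RPM with non-targeting siRNA to 106.5 RPM with DAXX siRNA and crotonate. How much of either gene's reads came from the shared stretch was not tested.

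IGF2BP1 (ENSG00000159217; chromosome 17, 48997385 to 49056145, plus strand), which in adults is found in few tissues, was near the detection limit, with 681 reads over the 16 libraries. Its libraries read 1.05, 0.721, 0.989 and 1.00 RPM with non-targeting siRNA and 1.21, 1.26, 1.37 and 1.43 RPM with crotonate added. With DAXX siRNA they read 0.609, 0.582, 0.596 and 0.833 RPM, and with crotonate added 1.02, 1.325, 1.19 and 0.907 RPM. Crotonate libraries were above the matching libraries without it under each siRNA.

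The crotonate difference of IGF2BP1 was 0.76 under DAXX siRNA (SE 0.211; 95% interval 0.323 to 1.205; limma adjusted p = 0.0171) and 0.50 under non-targeting siRNA (0.058 to 0.939; limma adjusted p = 0.124). The call was lost in 3 of 16 other settings (adjusted p from 0.0101 to 0.104), among them the fit without library 2 of DAXX siRNA with crotonate. The interaction was 0.27 (-0.358 to 0.889; limma adjusted p = 0.995). Of all genes tested, 16% were higher and 4.11% lower in every crotonate library under non-targeting siRNA, and 14.7% higher and 3.99% lower under DAXX siRNA. IGF2BP1 and IGF2BP3 were the 2 of 5 that did not overlap in these comparisons. Between siRNAs IGF2BP1 was the only tested gene of the set with a lower mean under DAXX siRNA, by -0.52 without crotonate and -0.26 with it, and the groups overlapped in both.

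IGF2BP2 (ENSG00000073792; chromosome 3, 185643739 to 185825056, minus strand), the member widely present in adult tissue, varied least between libraries. It read 146, 130.5, 131 and 139.6 RPM with non-targeting siRNA and 144, 151, 149.6 and 143 RPM with crotonate added. It read 162, 159.9, 156 and 158 RPM with DAXX siRNA and 187, 168, 164 and 160 RPM with crotonate added. Libraries with DAXX siRNA were all above those with non-targeting siRNA under the same crotonate condition, by 0.22 and 0.20 in mean log2 RPM.

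For IGF2BP2 the crotonate differences were 0.11 (95% interval -0.028 to 0.242; limma adjusted p = 0.301) and 0.09 (-0.046 to 0.223; limma adjusted p = 0.410), and groups overlapped. Both turned slightly negative on centring by the median gene, -0.022 and -0.028. The interaction was -0.02 (-0.209 to 0.172; limma adjusted p = 0.995). No gene of the whole table was called for the interaction by limma or by limma-voom on the recovered reads, against 433 at an unadjusted p under 0.05 (0% called). Higher under DAXX siRNA with no overlap were HMGA2, IGF2BP2 and IGF2BP3 without crotonate (2.69% of genes tested, and 3.46% lower) and HMGA2, HMGA1 and IGF2BP2 with it (3.55%, and 4.94% lower).

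**Figure D2:**
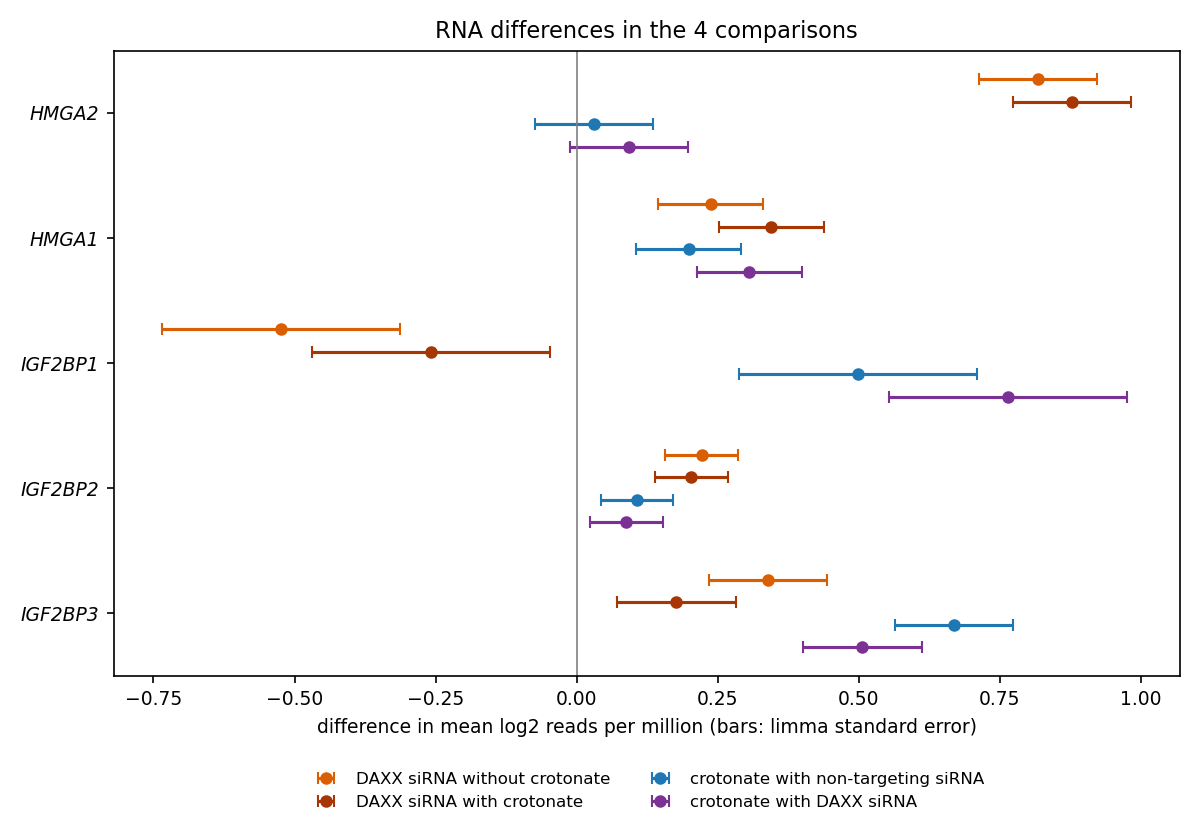
Difference in mean log2 RPM (horizontal axis) for the 5 tested genes in 4 comparisons, with limma standard errors as bars. The siRNA differences of HMGA2 (0.82 and 0.88) stand apart from its crotonate differences (0.03 and 0.09), while IGF2BP3 has its larger differences with crotonate (0.67 and 0.51).

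LIN28B (ENSG00000187772; chromosome 6, 104936616 to 105083332, plus strand) was nearly silent, with 99 reads in all 16 libraries and at most 17 in one. The libraries held 13, 5, 1 and 7 reads with non-targeting siRNA and 7, 12, 7 and 7 with crotonate added. They held 5, 3, 1 and 1 reads with DAXX siRNA and 1, 17, 12 and 0 with crotonate added. The groups overlapped throughout, and the library with no read allows a level of up to 0.0619 RPM (3 reads; counting error only). Only 3 libraries reached 0.25 RPM, so no test was made, and these counts do not decide whether the groups differ. LIN28B-AS1, which overlaps its start on the opposite strand, had no read.

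Likeness was measured as Pearson's r of log2 RPM over the 16 libraries, against the 8345 or 8346 other tested genes that had an official symbol and a mean at or above the median of tested genes. The libraries form 4 groups and share depth and scaling, so r mostly follows the group means and is given as a description. Closest to HMGA2 were LIMA1, an actin-bundling protein (r = 0.930), VAPA, a tether of the endoplasmic reticulum (0.926), SBDS, a ribosome maturation factor (0.925), and RIC1 (0.917). LIMA1 averaged 1.35 times higher with DAXX siRNA without crotonate, so its range was narrower than that of HMGA2. HMGA1 went most closely with HPCAL1, a calcium sensor (0.981), and OVCA2 (0.976). IGF2BP1 went with ASRGL1, an asparaginase (0.898), and ZDHHC23, a palmitoyltransferase (0.896). IGF2BP2 went with LTO1 (0.941) and GSR, glutathione reductase (0.921), and IGF2BP3 with SERPINB9, an inhibitor of granzyme B (0.980), and MACO1 (0.974). Among the genes themselves the highest r was 0.857, between HMGA2 and IGF2BP2, and the lowest -0.321, between HMGA2 and IGF2BP1.

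The wider pathway was read from lists of genes other than the 6, on the same fit. The lists were chosen with earlier results of these data known, so their counts and medians are given as description. In both comparisons between siRNAs and in the interaction no gene of any list was called. The let-7 pathway list (processing, argonaute and decay factors) had 15 tested genes, with a median log2 difference between siRNAs of -0.05 without crotonate and -0.02 with it (all genes -0.01 and -0.01). With crotonate under non-targeting siRNA 2 of 15 were called higher and 1 lower (all genes 13.1% and 2.34%), and under DAXX siRNA 2 higher and 0 lower (13% and 2.41%). The medians were 0.02 and 0.04, against 0.07 and 0.06 for all genes. AGO4, an argonaute, went from 7.57 ± 0.866 to 12.2 ± 0.457 RPM under DAXX siRNA (SD, n = 4; limma adjusted p = 8.97e-05), and its call under non-targeting siRNA (log2 difference 0.36) was lost in 6 of 16 other settings. XPO5, the exporter of miRNA precursors, went down by -0.24 under non-targeting siRNA (limma adjusted p = 0.0450), a call lost in 8 of 16 settings.

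Of 19 tested let-7 targets outside the set, 3 were called higher with crotonate under non-targeting siRNA, 4 under DAXX siRNA (all genes 13.1% and 13%), and none lower. The list's median difference was 0.10 and 0.14, against 0.07 and 0.06 for all genes. IGF1R, the IGF receptor, rose from 20.7 ± 2.54 to 32.5 ± 1.87 RPM under non-targeting siRNA and from 19.4 ± 1.07 to 32.7 ± 4.28 RPM under DAXX siRNA (SD, n = 4; limma adjusted p = 0.000133 and 3.34e-05). INSR, the insulin receptor, rose by 0.48 under DAXX siRNA (limma adjusted p = 0.000759).

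Among 10 mRNAs known to be bound by IGF2BP proteins, 3 were called higher with crotonate under each siRNA (all genes 13.1% and 13%): IGF2, H19 and MAPK4. IGF2, the fetal growth factor after which the family is named, rose from 14.6 ± 1.61 to 24.9 ± 2.41 RPM and from 13.9 ± 2.2 to 27.9 ± 4.5 RPM (SD, n = 4; limma adjusted p = 0.000227 and 1.44e-05). H19, the imprinted non-coding neighbour of IGF2, rose by 0.93 and 0.84 on the log2 scale (limma adjusted p = 0.000623 and 0.00158). ACTB, whose mRNA IGF2BP1 carries, was called lower under non-targeting siRNA by -0.22 (limma adjusted p = 0.0451), lost in 10 of 16 settings. The medians of the list were 0.14 and 0.06, against 0.07 and 0.06 for all genes. None of 19 m6A writers, erasers and readers was called in any comparison.

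Of 11 oncofetal genes listed, 7 passed the entry filter and were tested. Of these 7, 5 were called higher with crotonate under non-targeting siRNA and 4 under DAXX siRNA, against 13.1% and 13% of all genes. The list's medians were 0.77 and 0.63, against 0.07 and 0.06 for all genes. This list shares IGF2 and H19 with that of bound mRNAs. It too was chosen with earlier results of these data known, so its share of calls is description. PEG10, a retrotransposon-derived imprinted gene, rose from 39.5 ± 1.04 to 63.0 ± 2.95 RPM and from 36.6 ± 0.929 to 54.4 ± 4.48 RPM (SD, n = 4; limma adjusted p = 2.15e-06 and 1.385e-05). GPC3, a fetal glypican, rose from 0.262 ± 0.192 to 1.55 ± 0.301 RPM under non-targeting siRNA (limma adjusted p = 0.000528). Its median with non-targeting siRNA alone was 0.193 RPM, under the 0.25 RPM of the entry filter, while all its crotonate libraries were above it. How far the filter shaped the counts of this list was not tested. Among 8 genes reported as HMGA2 targets, 4 were called higher with crotonate under non-targeting siRNA and 3 under DAXX siRNA (all genes 13.1% and 13%), comparisons in which HMGA2 itself was not called. The medians were 0.22 and 0.25, against 0.07 and 0.06 for all genes. SNAI1, a repressor of E-cadherin, rose by 0.49 and 0.60 (limma adjusted p = 0.00135 and 0.000213). SNAI2, its relative, rose from 0.182 ± 0.0922 to 1.05 ± 0.312 RPM and from 0.0937 ± 0.0806 to 0.576 ± 0.276 RPM (limma adjusted p = 0.00598 and 0.00207). SNAI2 passed the entry filter only through its crotonate libraries, as without crotonate it reached at most 0.294 RPM. That filter favours a rise, so the SNAI2 calls, counted in the 4 and 3, are given as description. CDH1, E-cadherin, was also called higher under both siRNAs, by 0.32 and 0.29, and these calls were lost in 1 and 4 of 16 settings.

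Of 11 other HMG-box and HMG-nucleosome genes, 2 were called higher with crotonate under non-targeting siRNA (all genes 13.1%), HMGN3 and HMGN5, and 1 lower under DAXX siRNA (all genes 2.41%), HMGB2. The medians were 0.10 and -0.05, against 0.07 and 0.06 for all genes. HMGN3, a nucleosome-binding protein, rose from 36.5 ± 7.75 to 52.0 ± 2.61 RPM (SD, n = 4; limma adjusted p = 0.00581). HMGB2, a DNA-bending HMG-box protein, fell from 524 ± 51.7 to 374 ± 72.5 RPM (SD, n = 4; limma adjusted p = 0.00548). The HMGN5 call was lost in 7 of 16 settings.

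In the chromatin data each library held 2.23 M to 3.64 M reads in regions and the input 1.72 M. Values are reads times 1 scaling factor per library, with the input not subtracted, and the antibody reads crotonyl-lysine on any protein. Libraries 1A and 1B of each siRNA differed by little more than sampling noise (chi-square over degrees of freedom 1.0095 and 1.0125; p = 0.0808 and 0.0297), while the other pairs within groups lay between 1.0362 and 1.4258. Their mean was counted as 1 sample, which leaves 3, 2, 3 and 2 samples in the order of the groups above. The widest pair, at 1.4258, was the 2 samples of DAXX siRNA with crotonate.

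Of the 27 regions named for the genes, 10 lay at IGF2BP2, 7 at IGF2BP3, 5 at HMGA2, 3 at IGF2BP1, 2 at HMGA1 and 0 at LIN28B. By coordinates the count is 29, because the regions over the starts of HMGA2 and IGF2BP1 carry the symbols of overlapping genes, RPSAP52 and AC091133.2. Regions covered 95.2% of the short HMGA1 gene, 46.9% of IGF2BP1, 18% of IGF2BP2, 15.7% of HMGA2, 5.33% of IGF2BP3 and none of LIN28B. The region nearest the LIN28B start was 27666 bases away.

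A region lay over the start of each of the 5 genes that had RNA in the test. At HMGA2 it was chr12:65822401-65829150, with a mean of 30.2 scaled reads per kb, percentile 99.2 of all regions. At IGF2BP2 it was chr3:185822701-185827200, with 29.6 per kb (percentile 99), and at IGF2BP3 chr7:23466901-23472150, with 28.4 (percentile 98.5). At HMGA1 it was chr6:34233601-34245150, with 27.0 (percentile 97.4), and at IGF2BP1 chr17:48995101-48999600, with 23.1 (percentile 88.8). The other 24 regions had 15.6 to 26.1 per kb, with a median of 18.7, close to the median of 18.6 for all regions.

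Set against the input, the IGF2BP1 start stood apart from the others. The log2 ratio of mean Kcr to input was 1.57 at HMGA2, 1.45 at IGF2BP2, 1.12 at HMGA1 and 1.09 at IGF2BP3, against a median of 0.90 for all regions. At IGF2BP1 it was 0.425, percentile 4.46. The input itself was high there, with 17.2 scaled reads per kb (percentile 99.0), whereas the HMGA2 start had 10.2 (percentile 47.9). The other 3 IGF2BP1 regions had log2 ratios of 0.60, 0.18 and 0.56. Their input was high too, with 16.2, 17.8 and 13.7 scaled reads per kb (percentiles 98, 99.6 and 91.3). Over the 24 regions outside the starts the median log2 ratio was 0.69, below the 0.90 of all regions. Inner regions of HMGA2 at 0.474 and 0.41 and of IGF2BP2 at 0.422 were about as low as the IGF2BP1 start. A single input library limits all these ratios. It held 73 reads in the start region of IGF2BP1, 65 at HMGA2, 46 at IGF2BP2, 66 at IGF2BP3 and 135 at HMGA1.

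**Figure D3:**
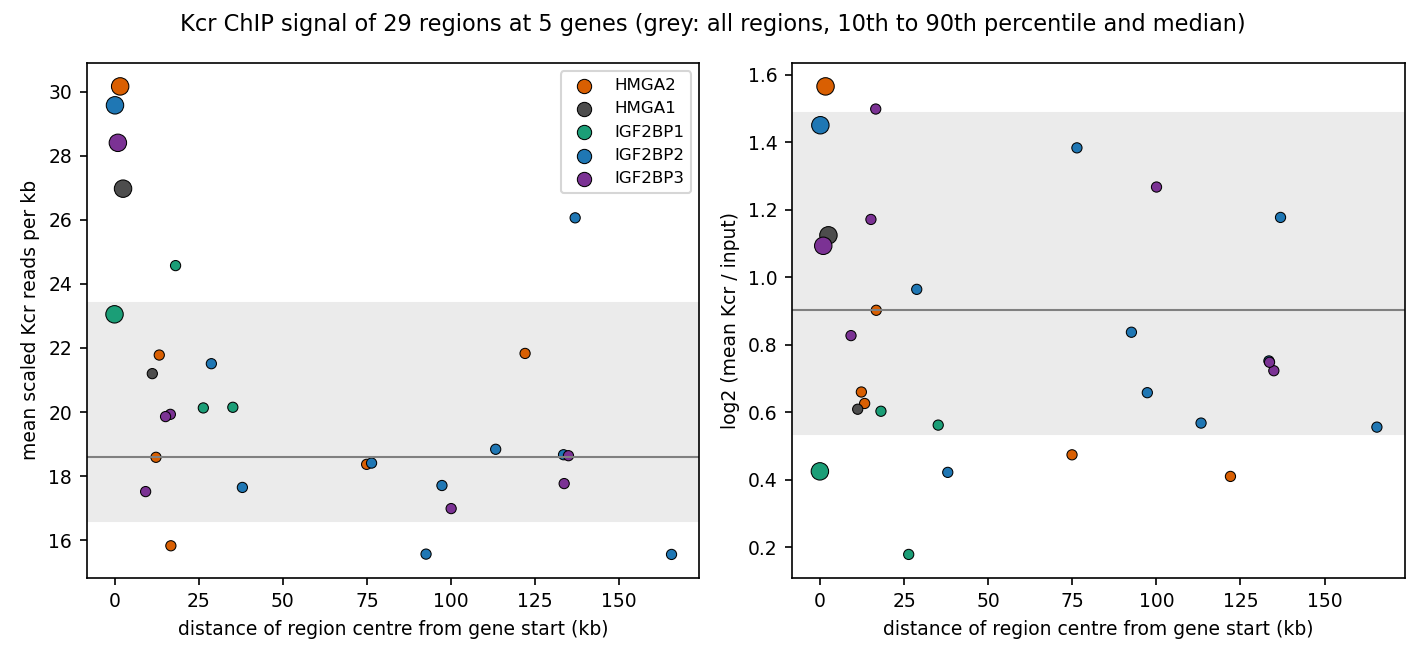
Kcr ChIP signal of the 29 regions by distance of the region centre from the gene start in kb; left, mean scaled reads per kb, right, log2 of mean Kcr over input. Large points cover the gene start, small points lie elsewhere in the gene, and the grey band and line are the 10th to 90th percentile and the median of all 49916 regions; the IGF2BP1 start (green) is high on the left and low on the right.

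DAXX siRNA left Kcr over the HMGA2 start within its spread, while HMGA2 RNA differed. The 3 samples with non-targeting siRNA read 217, 264 and 182 scaled reads, and those with DAXX siRNA 222, 261 and 184. With crotonate, the 2 samples of non-targeting siRNA read 214 and 149.7, and those of DAXX siRNA 240 and 142. The groups overlapped almost fully. The log2 difference between siRNAs was 0.01 without crotonate (95% interval -0.359 to 0.379; limma adjusted p = 1.000) and 0.05 with it (-0.405 to 0.498; limma adjusted p = 0.999).

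Over the 5 start regions the siRNA differences ran from -0.05 to 0.01 without crotonate and from 0.02 to 0.27 with it, against medians of 0.01 and 0.05 for all regions. Across the 27 regions none was called in either comparison, where 0% of all regions were called, and 13 of 27 without crotonate and 15 of 27 with it had a higher mean under DAXX siRNA. The number without overlap was 1 higher and 0 lower without crotonate (3.48% and 3.67% of all regions) and 3 higher and 3 lower with it (17.3% and 11.8%).

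No start region was called with crotonate, and all 5 had a lower mean, as did the median region. At IGF2BP3 the samples went from 172, 184 and 169 scaled reads with non-targeting siRNA to 128 and 91.8 with crotonate added, a log2 difference of -0.69 (SE 0.205; 95% interval -1.106 to -0.273; limma adjusted p = 0.232). At IGF2BP2 they went from 159, 169 and 133 to 116 and 85.0, a difference of -0.62 (-1.045 to -0.203; limma adjusted p = 0.247). At HMGA1 they went from 362, 354 and 339 to 265 and 246, a difference of -0.46 (-0.790 to -0.132; limma adjusted p = 0.264). At these 3 starts no crotonate sample reached the lowest sample without crotonate, as was so for 26.6% of all regions, but no difference passed adjustment. With the sample number as a replicate block these 3 were called, as given in the closing section. HMGA2 differed by -0.29 (-0.701 to 0.123; limma adjusted p = 0.540) and IGF2BP1 by -0.10 (-0.483 to 0.287; limma adjusted p = 0.856), and both overlapped. For all regions the median was -0.19. Without sample 3 of non-targeting siRNA with crotonate the differences shrank to -0.031 at HMGA2, -0.402 at IGF2BP2 and -0.451 at IGF2BP3. The IGF2BP1 sign turned when libraries were centred on the median region or scaled by quantiles (0.075 and 0.139).

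Under DAXX siRNA the same starts differed by -0.39 at IGF2BP3, -0.335 at IGF2BP2, -0.28 at HMGA1, -0.25 at HMGA2 and -0.03 at IGF2BP1, with every group overlapping (lowest limma adjusted p = 0.599; all regions -0.16). The IGF2BP3 samples read 182, 206 and 134 without crotonate and 171 and 100 with it. At the starts of HMGA2, HMGA1, IGF2BP2 and IGF2BP3, sample 2 was above sample 3 in every group, and no crotonate sample carries the number 1. Without sample 3 of DAXX siRNA with crotonate, the differences at HMGA2, HMGA1 and IGF2BP2 turned to 0.13, 0.02 and 0.08, and that at IGF2BP3 went to -0.007. Without sample 2 of that group they were -0.632, -0.579, -0.749 and -0.774.

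Of the 27 regions 21 were lower with crotonate under non-targeting siRNA, with a median of -0.17 (all regions -0.19), and 21 under DAXX siRNA, with a median of -0.20 (all regions -0.16). None was called, where 0% of all regions were called by limma and none by limma-voom; 6616 and 4241 regions had an unadjusted p under 0.05. Under non-targeting siRNA 7 of the 27 had every crotonate sample lower, against 26.6% of all regions, and none higher (3.41%); under DAXX siRNA 6 were lower, against 20.3%, and none higher (4.2%). The interaction was called in none of the 27 (0% of all regions; 1542 at an unadjusted p under 0.05), and its median was 0.03 against 0.04 for all regions. The relation between RNA and Kcr at the IGF2BP3 start was not tested.

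**Figure D4:**
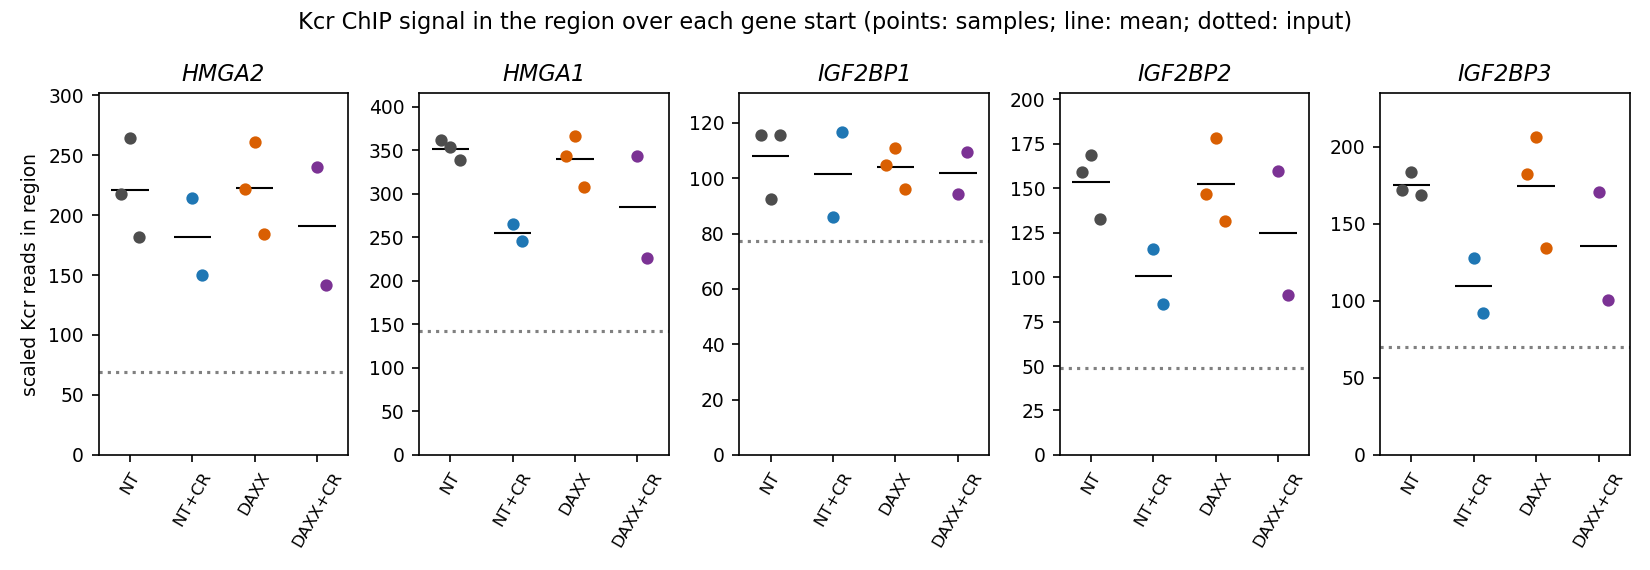
Scaled Kcr reads in the region over the start of 5 genes (vertical axes, each from 0) by group; NT is non-targeting siRNA, DAXX is DAXX siRNA, +CR marks crotonate. Points are samples (3 without and 2 with crotonate), horizontal lines group means and the dotted line the single input. The NT+CR samples lie below all NT samples at HMGA1, IGF2BP2 and IGF2BP3, as in 26.6% of all regions. The IGF2BP1 samples lie close to the input.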

How the data were processed

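RNA values were deposited by the authors as log2 RPM per gene, and Kcr ChIP values as log2 scaled reads per region, with the input not subtracted and 0 reads entered as 0.9 read. Per the submitters' processing notes, reads were trimmed with Trim Galore 0.6.2 or 0.6.5 and cutadapt 2.3; HISAT2 2.2.1, Bowtie2, MACS and build GRCh38 are named too. All values gave back whole reads within 0.01 of a read, and 0 value columns were left without a sample. The deposited log2 values were fitted here with limma 3.58.1 (R 4.3.3), with 1 mean per group, all groups in 1 fit and a trended variance; Benjamini-Hochberg adjustment covered all 17973 genes or 49916 regions. The fits were tested on simulated data. Intervals are 95%.

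The 6 genes and all lists were chosen with earlier results of these data known. Named genes are the 6, DAXX, genes that overlap them, the closest genes by correlation (5 for HMGA2, 1 of them not reported here, and 2 for each other) and, per list and comparison, up to 3 called genes each way. Replicate numbers were not treated as pairs, because not every same-number correlation of deviations was above 0.1. Alternatives changed the filter, the scaling, the offset, the groups fitted, the weighting (limma-voom on recovered reads) and the libraries included. Exons and introns were not analysed here.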

Additional observations from a re-analysis of the deposited data

Results flagged for a closer look

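IGF2BP1 in 1 of the 4 libraries with DAXX siRNA and no crotonate stood apart from the other 3. Library 4 read 0.833 RPM, from 32 reads, and the next highest 0.609 RPM, from 24 reads; the gap was 0.891 of the range of the group. In all, 24 groups of 4 libraries were examined, and chance alone marks about 1 in 20 such groups.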

How the results depend on the processing

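IGF2BP3 kept its crotonate call under both siRNAs in all 16 other settings of each comparison. The 73 genes called between siRNAs without crotonate became 29 when only those groups were fitted, and 39 to 82 without single libraries; with crotonate 190 became 95 to 180. For Kcr, 0 regions became 97 (crotonate, non-targeting siRNA) and 3 (DAXX siRNA) with 1A and 1B kept apart, and without single samples 0 to 44 and 0 to 395, and 0 to 6 between siRNAs with crotonate. The 395 came without sample 2 of DAXX siRNA with crotonate. The cause was not tested. Where a group was left with 1 sample, it was assumed to vary like the others.

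Deviations of same-numbered libraries correlated at -0.149 to 0.188 for RNA and at 0.004 to 0.095 for Kcr, where all 9 values were above 0, so the numbers were not taken as pairs. With the number as a replicate block, 73 genes became 117; Kcr calls with crotonate became 410 under non-targeting siRNA, the starts of HMGA1 (-0.45, adjusted p = 0.0426), IGF2BP2 (-0.62, 0.0356) and IGF2BP3 (-0.67, 0.0206) among them, and 3 under DAXX siRNA.

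Signs turned only for differences that were not called. Centred on the median gene, crotonate differences were -0.098 and -0.024 at HMGA2 and -0.022 and -0.028 at IGF2BP2. Centring or quantile scaling gave the IGF2BP1 start region 0.075 or 0.139 with crotonate under non-targeting siRNA, 0.104 or 0.166 under DAXX siRNA, and -0.021 or -0.042 between siRNAs with crotonate. Quantile scaling gave the HMGA2 start -0.001 and -0.020 between siRNAs. With 1A and 1B apart the IGF2BP3 start came to 0 without crotonate. Ranges without single libraries were -0.086 to 0.107 for HMGA2 RNA with crotonate under non-targeting siRNA, and for the interaction -0.014 to 0.179 (HMGA2) and -0.066 to 0.008 (IGF2BP2). For Kcr between siRNAs without crotonate they were -0.122 to 0.147 (HMGA2), -0.110 to 0.014 (HMGA1), -0.155 to 0.007 (IGF2BP1), -0.137 to 0.081 (IGF2BP2) and -0.160 to 0.149 (IGF2BP3). With crotonate they were -0.333 to 0.426, -0.172 to 0.428, -0.201 to 0.239, -0.142 to 0.685 and -0.111 to 0.656 in the same order. With crotonate under non-targeting siRNA the ranges were -0.318 to 0.121 at IGF2BP1 and -0.547 to -0.031 at HMGA2, and under DAXX siRNA -0.632 to 0.127 (HMGA2), -0.579 to 0.021 (HMGA1), -0.138 to 0.076 (IGF2BP1), -0.749 to 0.078 (IGF2BP2) and -0.774 to -0.007 (IGF2BP3). Depth limits IGF2BP1 and LIN28B most, with 681 and 99 reads in all.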
